A study of Saccharomyces cerevisiae with 8 samples.

Results

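The zinc regulon of budding yeast, Saccharomyces cerevisiae, was read here from 10 genes: the regulator ZAP1, the transporter genes ZRT1, ZRT2, ZRT3, ZRC1 and COT1, and the Zap1 targets ADH4, ZPS1, IZH1 and IZH2. The genes were chosen by name, and each was read from 1 probe set. All 10 were found among 5449 yeast genes tested, and all 10 lay above the background of the array, set at the 95th percentile of the probe sets for fission yeast genes, on all 8 arrays. Total RNA came from yeast expressing the mammalian inward rectifier potassium channel Kir2.1 from the plasmid pRS416TEF-Kir2.1-HA (4 arrays), and from yeast with the vector pRSGPD426 (4 arrays). Cultures of both groups grew at 26 °C under plasmid selection and were taken in mid-exponential phase, and the series describes its replicates as biological. The groups thus differed in plasmid backbone and promoter as well as in Kir2.1, and the 4 control arrays alone carry the mark of a re-analysis in the labels. These differences cannot be told apart from the channel. The host strain, the zinc content of the medium and the number of transformants behind the replicates are not stated in the labels.

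Zap1 is a zinc-sensing transcription factor that is active when cellular zinc is low. It switches on transporters that bring zinc in from the medium or out of the vacuole, and it also activates its own gene. Under zinc limitation the same factor raises a set of enzymes and secreted or membrane proteins, so transcripts of this regulon are widely used as a readout of zinc status in yeast. The vacuole stores zinc, which Zrc1 and Cot1 carry in and Zrt3 carries out. The comparison asked how the host's own metal genes stood in cells that make a foreign ion channel.

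Each level below is on a log2 scale that was rebuilt from the authors' standardized scores and set to 0 at the median gene of its array. Each difference is the Kir2.1 mean minus the control mean. In whole-culture RNA, fewer cells with a transcript and less of it per cell cannot be told apart. A level describes 1 probe set across arrays and is not compared between genes.

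3 of the arrays stood apart from the rest before any zinc gene was considered. The mean level of 12 iron uptake transcripts (siderophore transporters, cell wall mannoproteins of the FIT family, the Fet3 and Ftr1 uptake system and ferric reductases) was 2.33, -0.35, 2.48 and -0.79 in Kir2.1 replicates 1 to 4, against 1.99, -0.14, -0.62 and -0.25 in vector control replicates 1 to 4. Kir2.1 replicates 1 and 3 and vector control replicate 1 were thus high, and each group held both kinds of array. FIT1, a cell wall protein gene of siderophore retention, differed by 0.40 (SE 0.30) and the reductase gene FRE3 by 0.58 (SE 0.53), and neither passed (limma adjusted p = 0.711 and 0.743). FRE3 lay above the background on 4 of 8 arrays. Because the groups share this division, the difference of each of the 10 zinc genes is also given without these 3 arrays, which leaves 2 Kir2.1 and 3 vector control arrays, and which were picked from their iron values. The share of tested genes above the background was 84.9% to 88.6% per array.

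No zinc regulon gene passed between the groups. Limma called 0 of 10 at an adjusted p under 0.05, where it called 0.0% of all genes, and the adjusted p of the 10 ran from 0.551 to 0.855. At an unadjusted p under 0.05 there were 2 of 10, IZH1 and IZH2, against 8.35% of all genes. This count was 0 of 10 without centring, where 1005 of 5449 genes reached it, and after quantile normalization (264 of 5449). It was also 0 of 10 without the 3 arrays with high iron uptake transcripts (412 of 5449). With the iron uptake level of each array as a covariate it was 6 of 10, where 887 of 5449 genes reached it. Of these 6, ZAP1 was lower in Kir2.1 arrays and the others were higher. In 0 of 10 did all Kir2.1 values lie above or below all control values, against 6.59% of all genes. The mean was higher in Kir2.1 arrays for 9 of 10, all but ZAP1, against 58.7% of all genes. After quantile normalization ZAP1, ADH4 and ZPS1 were lower, and without the 3 arrays ZAP1, ZRT3, ADH4 and ZPS1 were lower. The median difference of the 10 was 0.19, beside 0.03 over all genes. It was 0.06 without the 3 arrays with high iron uptake transcripts, 0.06 without centring, 0.30 without Kir2.1 replicate 4 and 0.09 after quantile normalization. With weights that limma estimates for each array, 7 of 10 passed as higher (all but ZAP1, ADH4 and ZPS1) and 1735 of all genes passed in either direction. Kir2.1 replicates 2 and 4 and vector control replicate 1 then counted least. The weighted fit thus set mainly Kir2.1 arrays high in iron uptake transcripts against control arrays low in them. The median standard error was 0.17 for the zinc genes and 0.09 for all genes, with ZRT1 and ZRC1 below the median of all genes.

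**Figure D1:**
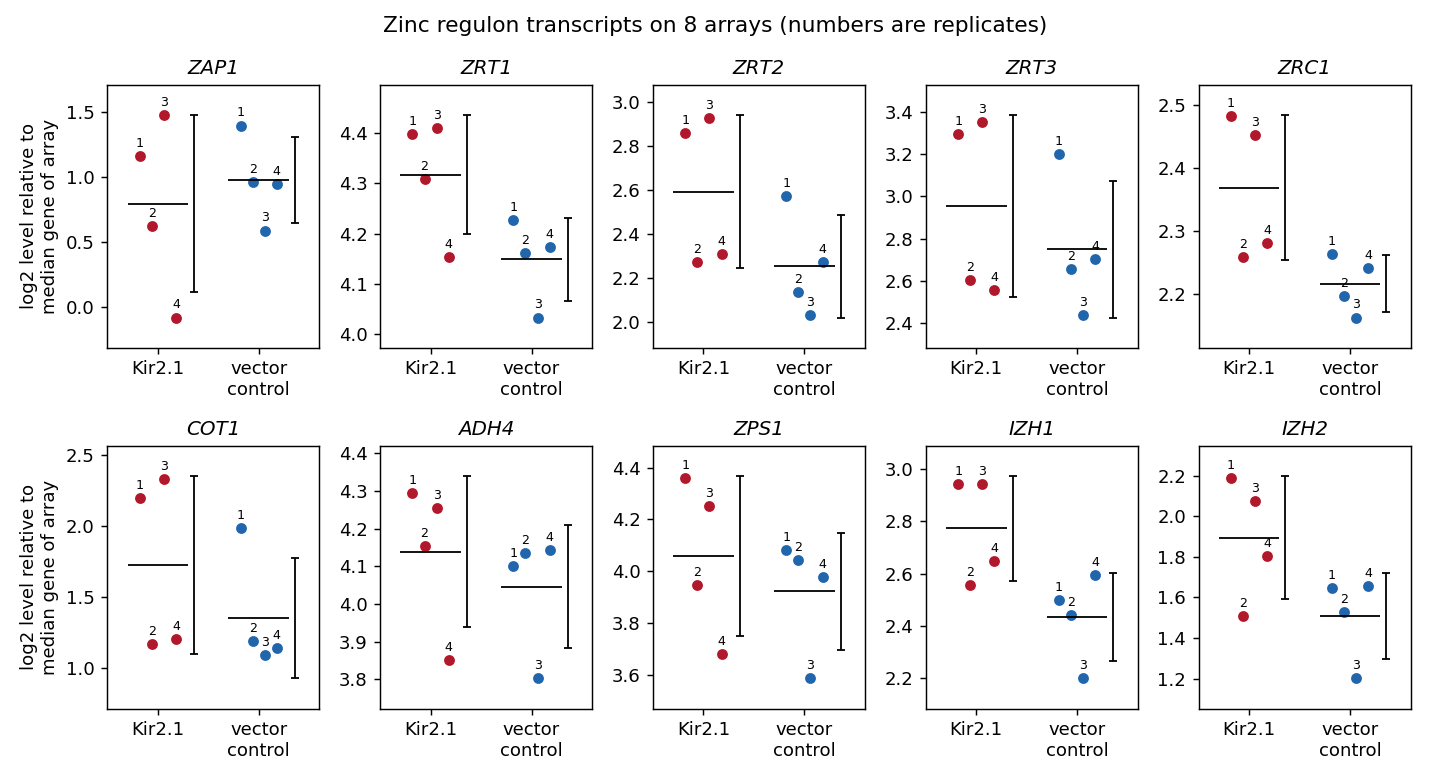
Level of each zinc regulon transcript (log2, with the median gene at 0) in Kir2.1 arrays (red, left) and vector control arrays (blue, right). Points are arrays numbered by replicate, horizontal bars are group means, vertical bars are SD (n = 4), and the vertical scale differs between panels. Kir2.1 replicates 1 and 3 are the upper points of their group in all 10 panels, and vector control replicate 3 is the lowest control in all 10.

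ZAP1 (YJL056C) encodes the regulator itself and was the 1 gene of the 10 with a lower mean in Kir2.1 arrays. Its level was 1.16, 0.62, 1.47 and -0.08 in Kir2.1 replicates 1 to 4, against 1.40, 0.96, 0.59 and 0.95 in vector control replicates 1 to 4. The Kir2.1 values spanned those of the control on both sides, with Kir2.1 replicate 4 the lowest and replicate 3 the highest of all 8 arrays. The means were 0.79 ± 0.68 in Kir2.1 arrays and 0.97 ± 0.33 in control arrays (SD, n = 4 each), a difference of -0.18 (SE 0.32, 95% interval -0.92 to 0.56, limma adjusted p = 0.855). Its sign turned without Kir2.1 replicate 4, to 0.11. Without the 3 arrays with high iron uptake transcripts the difference was -0.56 (SE 0.23, adjusted p = 0.633), and with the iron uptake level of each array as a covariate it was -0.40 (SE 0.14, adjusted p = 0.235).

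Zrt1 is the high-affinity zinc transporter of the plasma membrane. ZRT1 (YGL255W) stood at 4.40, 4.31, 4.41 and 4.15 in Kir2.1 replicates 1 to 4, against 4.23, 4.16, 4.03 and 4.17 in vector control replicates 1 to 4. In Kir2.1 cultures 3 replicates lay above every control value, and replicate 4 lay among the controls. The difference was 0.17 (SE 0.08, 95% interval -0.0046 to 0.34, limma adjusted p = 0.609), with means of 4.32 ± 0.12 in Kir2.1 arrays and 4.15 ± 0.08 in control arrays (SD, n = 4 each). The probe set read only 0.33 to 0.60 below the brightest probe set of its array on the log2 scale. Whether such readings are compressed was not tested. On the centred scale that brightest probe set stood at 4.73 to 4.84 in Kir2.1 arrays and at 4.53 to 4.65 in control arrays. The part of this shift in the ZRT1 difference was not tested. After quantile normalization, which gives all arrays the same top values, the ZRT1 difference was 0.013, and without the 3 arrays with high iron uptake transcripts it was 0.11.

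Zrt2 is the low-affinity transporter of the plasma membrane, and its gene is known to be induced by Zap1 at mild limitation and repressed by it when zinc is very scarce. ZRT2 (YLR130C) measured 2.86, 2.27, 2.92 and 2.31 in Kir2.1 replicates 1 to 4, against 2.57, 2.14, 2.03 and 2.27 in vector control replicates 1 to 4. Kir2.1 replicates 1 and 3 and control replicate 1 were the 3 highest arrays, with a gap of 0.26 to the next. The difference of 0.34 (SE 0.18, 95% interval -0.08 to 0.75) did not pass (limma adjusted p = 0.677). Without those 3 arrays it was 0.14 (SE 0.09, adjusted p = 0.652), and all Kir2.1 values that were left lay above all control values, by a margin smaller than the second decimal.

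The vacuolar transporter genes divided in how far they varied. ZRT3 (YKL175W), for the exporter that releases stored zinc to the cytosol, was at 3.30, 2.61, 3.35 and 2.56 in Kir2.1 replicates 1 to 4, against 3.20, 2.65, 2.44 and 2.70 in vector control replicates 1 to 4. Again Kir2.1 replicates 1 and 3 and control replicate 1 were highest, here by a gap of 0.49 to the other 5 arrays, which mixed both groups. The group difference of 0.20 (SE 0.23, 95% interval -0.32 to 0.73, limma adjusted p = 0.783) was -0.017 without those 3 arrays and 0.10 after quantile normalization.

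COT1 (YOR316C) encodes a vacuolar carrier of zinc and cobalt and is also known as a target of the iron regulator Aft1. It stood at 2.20, 1.17, 2.33 and 1.20 in Kir2.1 replicates 1 to 4, against 1.99, 1.19, 1.09 and 1.14 in vector control replicates 1 to 4. The same 3 arrays were highest and lay 0.79 above the next, the widest such gap among the 10 genes, while the other 5 arrays spanned only 1.09 to 1.20. The spread within groups, a pooled SD of 0.54, was at the 97.8th percentile of all genes. The group difference of 0.37 had a standard error of 0.32 (95% interval -0.36 to 1.11, limma adjusted p = 0.736). It was 0.04 (SE 0.06) without the 3 arrays and 0.13 (SE 0.06, adjusted p = 0.312) with the iron uptake level as a covariate.

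ZRC1 (YMR243C), for the main vacuolar zinc importer, which protects against zinc shock, varied far less. It read 2.48, 2.26, 2.45 and 2.28 in Kir2.1 replicates 1 to 4, against 2.26, 2.20, 2.16 and 2.24 in vector control replicates 1 to 4. Kir2.1 replicates 1 and 3 were again highest, and of the other 2 Kir2.1 arrays only replicate 2 reached into the control range, just under control replicate 1. Its pooled SD of 0.09 lay at the 23.7th percentile of all genes. The difference was 0.15 (SE 0.07, 95% interval -0.0055 to 0.31, limma adjusted p = 0.609), 0.08 after quantile normalization and 0.07 without the 3 arrays.

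ADH4 (YGL256W) encodes an alcohol dehydrogenase that is made mainly when zinc is scarce. Its level was 4.29, 4.15, 4.26 and 3.85 in Kir2.1 replicates 1 to 4, against 4.10, 4.14, 3.80 and 4.14 in vector control replicates 1 to 4. In each group 1 culture was low, Kir2.1 replicate 4 and control replicate 3, and the other arrays of both groups lay close together. The difference of 0.09 (SE 0.12, 95% interval -0.18 to 0.36, limma adjusted p = 0.799) had the opposite sign after quantile normalization (-0.070), without centring (-0.036) and without the 3 arrays with high iron uptake transcripts (-0.025).

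ZPS1 (YOL154W), for a cell wall protein related to fungal zinc-scavenging proteins, had the same pair of low arrays. It stood at 4.36, 3.95, 4.25 and 3.68 in Kir2.1 replicates 1 to 4, against 4.08, 4.04, 3.59 and 3.98 in vector control replicates 1 to 4. The groups overlapped over most of their range. The difference was 0.14 (SE 0.17, 95% interval -0.24 to 0.52, limma adjusted p = 0.792), with the sign turned after quantile normalization (-0.016) and without the 3 arrays (-0.055). Like ZRT1, both probe sets read near the top of the scale, ADH4 0.45 to 0.91 and ZPS1 0.41 to 1.08 below the brightest probe set of the array.

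IZH1 and IZH2 encode membrane proteins of the progestin and adipoQ receptor family that affect zinc homeostasis, and had the smallest unadjusted p of the 10. IZH1 (YDR492W) was at 2.94, 2.56, 2.94 and 2.65 in Kir2.1 replicates 1 to 4, against 2.50, 2.44, 2.20 and 2.60 in vector control replicates 1 to 4. Only control replicate 4 reached into the Kir2.1 range, and control replicate 1, high in iron uptake transcripts, was not high here. The difference of 0.34 (SE 0.12) is a fold change of 1.26 (95% interval 1.05 to 1.53, limma unadjusted p = 0.0208, adjusted p = 0.551).

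IZH2 (YOL002C) measured 2.19, 1.51, 2.07 and 1.81 in Kir2.1 replicates 1 to 4, against 1.65, 1.53, 1.20 and 1.66 in vector control replicates 1 to 4. Of the Kir2.1 arrays only replicate 2 lay within the control range. The fold change was 1.31 (95% interval 1.01 to 1.69, limma unadjusted p = 0.0426, adjusted p = 0.589), from a difference of 0.39 (SE 0.16). Without the 3 arrays with high iron uptake transcripts the differences were 0.19 for IZH1 and 0.20 for IZH2, and after quantile normalization 0.26 and 0.34.

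**Figure D2:**
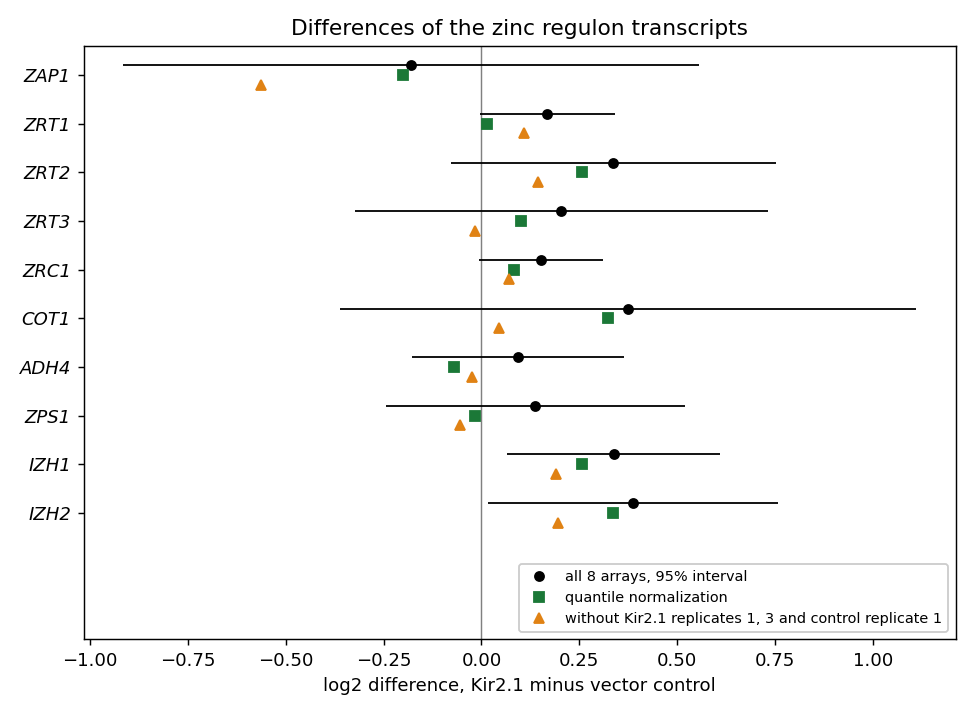
Difference of each zinc regulon transcript (log2, Kir2.1 minus vector control) over all 8 arrays with its 95% limma interval (black circles and lines), after quantile normalization (green squares) and without Kir2.1 replicates 1 and 3 and vector control replicate 1 (orange triangles). The unadjusted intervals of IZH1 and IZH2 alone leave out 0, and the orange triangles of ZAP1, ZRT3, ADH4 and ZPS1 lie below 0.

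Across arrays the zinc genes varied together within each group. Kir2.1 replicates 1 and 3 both lay above Kir2.1 replicates 2 and 4 in 10 of 10 zinc genes, an order found in 28.0% of all genes. Vector control replicate 3 was the lowest control in 10 of 10 (30.5% of all genes), and control replicate 1 the highest control in 7 of 10 (40.2% of all genes), the exceptions being ADH4, IZH1 and IZH2. These counts were chosen after the values were seen and describe the 10 genes, most of which are known Zap1 targets and so are not independent of each other. Iron uptake transcripts were also highest in Kir2.1 replicates 1 and 3 and in control replicate 1, and lowest in Kir2.1 replicate 4 and control replicate 3. Their part in the levels of the zinc genes was not tested.

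Set against the iron uptake level of all 8 arrays, the genes fell into 2 patterns. In 5 of 10, ZAP1, ZRT2, ZRT3, COT1 and ZPS1, the 3 arrays with high iron uptake transcripts were also the 3 highest for the zinc gene, which holds for 16.7% of all genes, while 0 of 10 had them as the 3 lowest (18.4% of all genes). The gap to the next array was 0.79 for COT1 and 0.49 for ZRT3 but 0.04 for ZPS1. In ZRT1, ZRC1, ADH4, IZH1 and IZH2, only the Kir2.1 arrays of the 3 were highest, and control replicate 1 lay among the remaining arrays. The arrays form separate clusters in iron uptake level, so no correlation is given, and a relation between the levels was not tested.

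**Figure D3:**
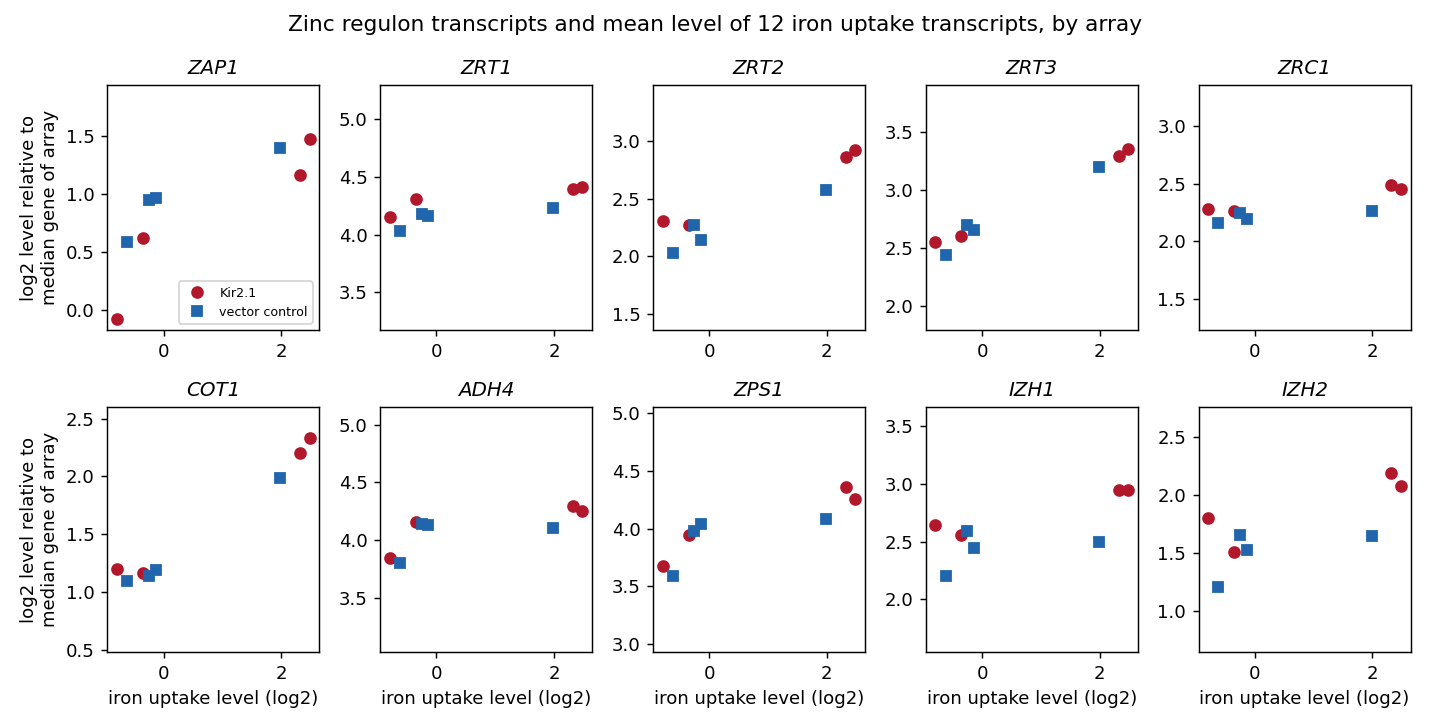
Level of each zinc regulon transcript (vertical, log2 relative to the median gene; all panels span the same range in log2 units) against the mean level of 12 iron uptake transcripts (horizontal, log2) for 4 Kir2.1 arrays (red circles) and 4 vector control arrays (blue squares). The 3 arrays on the right lie 0.79 or more above the other 5 for COT1 and overlap with them for ZRT1, ZRC1, ADH4, IZH1 and IZH2.

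As a measure of likeness, Pearson's r over the 8 arrays was taken between pairs of genes. It is a description, and the 3 arrays that stand apart in iron uptake transcripts are among the 8. Among the 45 pairs of zinc genes r ran from 0.36 (ZAP1 with IZH1) to 0.98 (ZRT3 with COT1), with a median of 0.80, beside a median of 0.016 over all pairs of genes above the background on all arrays. IZH1 and IZH2 were alike at 0.97, and ADH4 and ZPS1 at 0.96. Of 4532 other genes above the background on all arrays, the one most like COT1 was FTH1, an iron transporter gene of the vacuole (r = 0.997, Spearman's rho = 0.86), followed by YDR476C (0.996) and PRY1 (0.994). ZRT3 was most like YGK3 (0.997), BUD9 (0.994) and SMF3, a vacuolar iron exporter gene (0.993, rho = 0.98). ZAP1 was most like ZRG17, which encodes a zinc transporter subunit of the endoplasmic reticulum (0.98, rho = 0.98), CLB1 and ASI3 (0.98 each). IZH1 was most like OLE1, the fatty acid desaturase gene (0.99), IZH2 (0.97) and FRD1 (0.97). For IZH2 the closest were FRD1, YCP4 (0.98 each) and IZH1. ZRT2 resembled IRA1, YJL068C and APA2 (0.99 each), ZRT1 resembled TMS1 (0.97), TAL1 and WHI4 (0.96 each), and ZRC1 resembled ARF2, YCP4 and APE3 (0.98 each). For ADH4 the closest were AAD10, AMN1 (0.97 each) and ZPS1, and for ZPS1 they were TOR2 (0.99), GPI16 (0.98) and ADH4.

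Among other genes known as Zap1 targets, 15 were measured and 0 passed between the groups. On average 13 were higher and 2 lower in Kir2.1 arrays, against 58.7% of all genes higher, and the median difference was 0.11. This direction depended on the 3 arrays with high iron uptake transcripts. Without them FET4, VEL1, YOR387C, MCD4, RTC4, NRG2, MNT2 and ZRG17 were lower, with differences from -0.37 (ZRG17) to -0.04 (NRG2). The other targets were higher there, ZRG8 by only 0.002. TSA1, a peroxiredoxin gene, was the 1 of 15 whose groups did not overlap (6.59% of all genes), at 4.16, 4.13, 4.14 and 4.17 in Kir2.1 replicates 1 to 4, against 4.02, 4.04, 3.93 and 4.04 in vector control replicates 1 to 4. Its difference of 0.14 (SE 0.05) did not pass over all genes (limma adjusted p = 0.551), and its groups overlapped without centring. Without the 3 arrays with high iron uptake transcripts the TSA1 difference was also 0.14 (SE 0.07). The TSA1 probe set read 0.54 to 0.71 below the brightest probe set of its array, which itself stood higher in Kir2.1 arrays. The part of this shift in the TSA1 difference was not tested. Those 3 arrays were the 3 highest in 11 of 15 (16.7% of all genes), and control replicate 3 was the lowest control in 14 of 15 (30.5% of all genes).

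**Figure D4:**
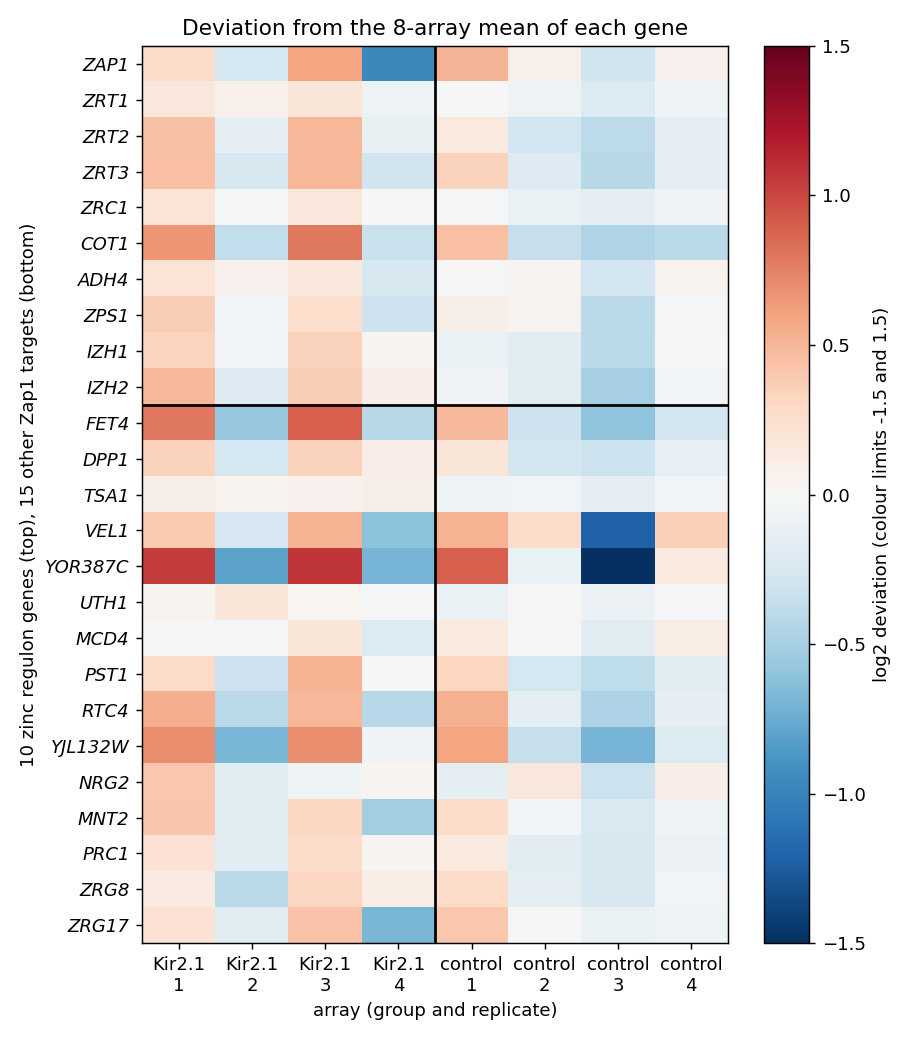
Deviation of each transcript from its own mean over 8 arrays (colour, log2, limits -1.5 and 1.5, the value of YOR387C in control replicate 3 lying beyond the lower limit) for the 10 zinc regulon genes (above the line) and 15 other Zap1 targets (below it), with Kir2.1 arrays on the left and vector control arrays on the right. Kir2.1 replicates 1 and 3 are red in all 10 upper rows and control replicate 3 is blue in all 10.

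Among further zinc transport genes, FET4, for a low-affinity transporter of iron, copper and zinc that both Zap1 and Aft1 regulate, resembled COT1. It stood at 2.75, 1.39, 2.85 and 1.55 in Kir2.1 replicates 1 to 4, against 2.45, 1.64, 1.36 and 1.68 in vector control replicates 1 to 4, a difference of 0.35 (SE 0.38, limma adjusted p = 0.776). The 3 arrays with high iron uptake transcripts lay 0.77 above the next, and without them the FET4 difference was -0.09 (SE 0.12). MSC2 and ZRG17, which encode a zinc transporter complex of the endoplasmic reticulum, differed by 0.04 (SE 0.13) and -0.11 (SE 0.23), and by -0.03 and -0.37 without those arrays. ZRG8, a zinc-regulated gene, differed by 0.08 (SE 0.17). YKE4, for a zinc transporter of the endoplasmic reticulum, read 1.08, 0.91, 0.97 and 1.68 in Kir2.1 replicates 1 to 4, against 0.85, 0.76, 0.75 and 0.82 in vector control replicates 1 to 4, so its groups did not overlap and Kir2.1 replicate 4 was highest. Its difference of 0.37 (SE 0.16) did not pass (limma adjusted p = 0.594), and was 0.52 (SE 0.22) without the 3 arrays. The YKE4 groups overlapped without centring.

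The rest of the IZH family was also higher on average in Kir2.1 arrays, without passing: IZH3 differed by 0.11 (SE 0.06, limma adjusted p = 0.685) and IZH4 by 0.47 (SE 0.35, adjusted p = 0.711), the second by 0.01 without the 3 arrays with high iron uptake transcripts. Among 8 alcohol dehydrogenase genes 0 passed. ADH1 and ADH3, which Zap1 is known to repress in zinc-limited cells and whose products bind zinc, differed by 0.16 (SE 0.09) and 0.15 (SE 0.07), and the ADH3 groups did not overlap. In contrast to ADH4, both had their lowest control value in replicate 1. ADH5, ADH6 and SFA1 differed by 0.16, 0.17 and 0.12 and ADH2 by -0.01, and ADH7 lay within the background on all 8 arrays. Without the 3 arrays ADH1 differed by 0.22, ADH3 by 0.17, ADH5 by 0.21, ADH6 by 0.31, SFA1 by 0.06 and ADH2 by 0.07. None of these passed there, and ADH4 was lower (-0.025). Of 7 measured genes in a list of zinc enzymes, which also holds the peroxiredoxin gene TSA1, FBA1 (aldolase), SOD1 (copper and zinc superoxide dismutase), ADH3 and TSA1 had groups that did not overlap, against 6.59% of all genes, with differences of 0.18, 0.09, 0.15 and 0.14. None of the 7 passed (smallest limma adjusted p = 0.551). Without centring, -0.13 is added to each of these differences, as this was the difference of the median gene itself. The groups of FBA1, SOD1, ADH3 and TSA1 all overlapped without centring, so their separation depended on it. Of 13 other metal transporter and regulator genes 0 passed, with 10 higher and 3 lower (58.7% of all genes higher) and a median of 0.08. Without the 3 arrays SMF3, CTR1, AFT1, AFT2, MAC1 and YAP5 were lower, with differences from -0.24 to -0.03, and the others higher. AFT2 lay above the background on 2 of 8 arrays. The metallothionein gene CUP1-1 was the 1 of 13 whose groups did not overlap (6.59% of all genes), with a difference of 0.15 (SE 0.05). The CUP1-1 groups overlapped without centring. FBA1, SOD1, TSA1 and CUP1-1 all read near the top of the scale. On the centred scale the brightest probe set itself stood at 4.73 to 4.84 in Kir2.1 arrays and at 4.53 to 4.65 in control arrays. The part of this shift in their differences was not tested, and the share of 6.59% is over genes of all levels.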

How the data were processed

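Total RNA of 8 yeast cultures was labelled with biotin and read on a 3'-primed expression array, per the labels' protocols. The deposited values are a standardized score per probe set. From the values, every array has mean 0 and SD 1 over 10715 probe sets, on a linear scale. How probes were summarized and with which software is not stated in the labels. Log2 values were rebuilt with zero 0.005 array SD below each array's lowest score, then centred on the median of the tested genes. GEO's platform annotation gave 1 yeast gene for 5498 probe sets, fission yeast genes for 1746, several genes for 1 and none for 3470. Symbols were updated through RefSeq (assembly R64), and the brightest probe set stood for each of 47 genes with several, leaving 5449 genes. The group test was limma's (version 3.58.1, R 4.3.3, lmFit and eBayes, two-sided, Benjamini-Hochberg over all genes), tested on simulated data. The simulated noise was independent between genes and arrays. It thus lacked the division shared by many genes here, and cannot show how the test behaves with it. The number of arrays limits the precision. Members, lists and tests were chosen with earlier results of these data known. All 10 members are named. Of other lists, named genes are all further zinc transport, IZH and alcohol dehydrogenase genes, any gene passing or with separated groups, and otherwise the 2 with the smallest p, plus 3 genes most like each member. VEL1, YOR387C and those with a value far from its group were named after their values were seen. So were genes listed as lower without the 3 arrays with high iron uptake transcripts. Promoter sequences were not used here.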

Additional observations from a re-analysis of the deposited data

Results flagged for a closer look

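2 zinc regulon genes had 1 culture far from the other 3 of its group. COT1 stood at 1.99 in vector control replicate 1, while the other controls lay between 1.09 and 1.19. This array was also high in iron uptake transcripts, whose part was not tested. ADH4 stood at 3.80 in vector control replicate 3, with the other controls between 4.10 and 4.14. Of the other genes named, VEL1 was low in the same array (-0.89), ZRG17 and MSC2 were high in vector control replicate 1 (0.25 and 0.31), and ADH3 and ADH6 were low there (2.78 and 1.86). Such a gap was looked for in 72 groups of 4 and found in 7, of which 5 were control replicate 1 and 2 control replicate 3. By chance about 1 group in 20 would show one, or 3.6 of 72. No Kir2.1 array stood apart in this way in these genes. The search looks for 1 value far from the other 3 and can hardly flag a group split 2 against 2. In all 10 zinc regulon genes Kir2.1 replicates 1 and 3 lay above replicates 2 and 4, so this does not mean that the Kir2.1 arrays were more uniform.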

How the results depend on the processing

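In 23 alternatives, 0 zinc regulon genes passed except with array weights, which called 7 (ZRT1, ZRT2, ZRT3, ZRC1, COT1, IZH1 and IZH2), among 1735 of all genes, and gave Kir2.1 replicates 2 and 4 and vector control replicate 1 weights of 0.231, 0.267 and 0.372. Its differences were 0.23, 0.60, 0.55, 0.23, 0.90, 0.43 and 0.56, and that of ZAP1 was 0.21, of opposite sign. The 2 Kir2.1 arrays with low weights were low in iron uptake transcripts, and the control array was high. Kir2.1 replicates 1 and 3 had weights of 1.84 and 0.861, and control replicates 2 to 4 had 3.13, 2.09 and 4.20. The weighted fit thus set mainly Kir2.1 arrays high in iron uptake transcripts against control arrays low in them. The cause was not tested. The deposited scores without log2 called 1 gene of all, and there ADH4 differed by -0.11 score units. ADH4 was also negative without centring (-0.036), after quantile normalization (-0.070) and without the 3 arrays with high iron uptake transcripts (-0.025), and ZPS1 in the last 2 settings (-0.016 and -0.055). ZRT3 was -0.017 without those 3 arrays, where 2 members (ZRT2 and ZRC1) had separated groups on 5 arrays. Smaller groups separate more easily by chance. The share of all genes was not taken for this count or for those that leave out 1 array. Leaving out 1 array at a time gave 0 to 3 members with separated groups, ZAP1 differences from -0.41 to 0.11, and a median of the 10 from 0.13 to 0.30. The median was 0.38 with array weights and 0.06 without centring. Same-numbered arrays did not deviate together in all pairs (r = 0.81, 0.69, -0.66 and 0.39), so the numbers were not taken as pairs. The fit with the replicate block called 0 of 10 members and 0 of all genes, with 525 at an unadjusted p under 0.05 against 455 without it. Signals near the top of the scale limit ZRT1, ADH4 and ZPS1. The same limit holds for ADH1 (0.22 to 0.46 below the brightest probe set), FBA1 (0.28 to 0.38) and CUP1-1 (0.40 to 0.49). It also holds for TSA1 (0.54 to 0.71) and SOD1 (0.73 to 0.88).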

Other observations

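2 further Zap1 targets of unknown function, VEL1 and YOR387C, showed the low state of vector control replicate 3 more widely than the 10 zinc regulon genes. YOR387C stood at 2.82, 0.97, 2.84 and 1.07 in Kir2.1 replicates 1 to 4, against 2.66, 1.67, 0.19 and 1.91 in vector control replicates 1 to 4. VEL1 stood at 0.72, 0.07, 0.84 and -0.30 in Kir2.1 replicates 1 to 4, against 0.85, 0.60, -0.89 and 0.68 in vector control replicates 1 to 4. Both were lowest of all 8 arrays in control replicate 3, as were 9 of the 10 zinc regulon genes, the exception being ZAP1, which was lowest in Kir2.1 replicate 4. Between the groups YOR387C differed by 0.32 (SE 0.62, limma adjusted p = 0.863) and VEL1 by 0.02 (SE 0.41, adjusted p = 0.986), and both by -0.24 without the 3 arrays with high iron uptake transcripts. These 2 genes were named after their values were seen.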
